A study of Mus musculus with 15 samples.

Results

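Myc, Cdkn1a and Plk2 are 3 regulators of cell growth and division. They were taken by gene symbol from the RNA sequencing tables of mouse uterine epithelium and are 3 of the 28269 genes and transcripts listed there. All 3 were listed in each of the 15 libraries. They were selected on their measured levels in the 5 groups, which were already known from these libraries, so the differences in level below are given with their errors as a description and without a p-value.

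The libraries came from glandular epithelium (GE), the cells of the uterine glands, and luminal epithelium (LE), the surface layer facing the cavity of the uterus, at day 4. Wild-type control mice gave 3 LE and 3 GE libraries, mice labelled E-OEX gave 3 LE and 3 GE libraries, and mice labelled U-OEx gave 3 LE libraries. E-OEX and U-OEx both carry the genotype label of overexpression of Notch1, the gene of a cell surface receptor. The 2 abbreviations are used as names only, since their meaning, the promoter or Cre line behind them, the age of the mice and any pooling of animals are not given in the sources used here.

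Myc encodes a transcription factor that drives ribosome production and entry into the cell cycle, and its network partner Max is needed for its binding to DNA. Cdkn1a encodes p21, an inhibitor of the cyclin-dependent kinases that acts downstream of the tumour suppressor p53 and halts the cycle before DNA replication. Plk2 encodes a polo-like kinase that was found as a serum-inducible early response gene, is induced by p53 and acts at the centrosome. Myc and Cdkn1a are both known as direct targets of Notch signalling in several tissues, in which the receptor's intracellular part joins the DNA-binding protein RBPJ. In the mouse uterus around implantation, the luminal epithelium stops dividing under progesterone.

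Values are the authors' deposited scaled read counts, that is, read counts divided by 1 factor per library. The listed genes held between 3818041 and 4797424 reads in the wild-type libraries, between 1980800 and 3494859 in E-OEX and between 13541644 and 14981505 in U-OEx. Wild type has 6414 genes listed and E-OEX 4903, selected for a difference between GE and LE, while U-OEx has 27946. Notch1 was listed only in the U-OEx tables, so its overexpression was not checked against wild type. The 7 luminal marker genes summed to between 31942 and 137830 in the LE libraries and to between 829 and 8881 in the GE libraries. Its members did not move together, and in U-OEx LE the sum was mostly Ltf, at a mean of 105550 against 1136 in wild-type LE. Calb1 was at 238 there against 32861 in wild-type LE, and Lpar3 at 266 against 6812, near their means of 370 and 223 in wild-type GE. Against wild-type LE, limma called 2 of the 7 higher and 3 lower in U-OEx LE, where it called 56.9% of all genes. It called 2 higher and 2 lower in E-OEX LE, where it called 10.7% of all genes. The 7 glandular markers listed in all tables summed to between 9469 and 33865 in GE and to between 122 and 2334 in LE. The labels do not say whether replicates came from separate animals, so p-values measure the spread between these libraries only.

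The 250 bases before the start of Plk2 and before both starts of Cdkn1a are shown because these genes belong to pathways whose factors bind known short motifs. They were read from RefSeq's promoter table (GRCm38.p6, plus strand), which matched Plk2 and Cdkn1a. Capitals mark the motifs found on either strand.
Plk2, chr13:110394794-110395043: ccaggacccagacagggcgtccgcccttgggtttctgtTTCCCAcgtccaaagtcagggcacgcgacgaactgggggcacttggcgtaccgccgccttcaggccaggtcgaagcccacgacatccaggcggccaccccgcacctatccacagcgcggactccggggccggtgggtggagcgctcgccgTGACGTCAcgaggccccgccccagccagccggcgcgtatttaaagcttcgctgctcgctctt
Cdkn1a, upstream start, chr17:29090729-29090978: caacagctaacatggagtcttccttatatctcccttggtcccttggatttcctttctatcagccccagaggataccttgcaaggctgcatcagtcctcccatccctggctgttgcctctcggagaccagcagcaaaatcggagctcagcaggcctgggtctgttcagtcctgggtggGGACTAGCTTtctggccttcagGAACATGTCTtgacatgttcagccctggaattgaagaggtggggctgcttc
Cdkn1a, downstream start, chr17:29093519-29093768: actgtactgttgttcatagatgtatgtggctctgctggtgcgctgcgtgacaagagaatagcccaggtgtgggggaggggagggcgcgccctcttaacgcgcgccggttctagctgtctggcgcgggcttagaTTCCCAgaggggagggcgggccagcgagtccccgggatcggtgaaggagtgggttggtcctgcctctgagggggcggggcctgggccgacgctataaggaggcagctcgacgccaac

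The Plk2 window held the RBPJ core, TGGGAA or its reverse complement TTCCCA, starting at position -212 counted from the gene start, and the cyclic AMP response element TGACGTCA starting at -62. The upstream Cdkn1a window held 2 matches to the p53 half-site consensus, which start at -73 and -51. The downstream Cdkn1a window held the RBPJ core starting at -117. Over 32851 promoter windows of the same length, 21.6% held the RBPJ core, 1.55% the cyclic AMP element and 7.13% a p53 half-site. The E-box CACGTG, which 6.02% of the windows held, and the TATA box TATAAA, which 12.4% held, were not among the letters of the 3 windows. These are matches of letters and say nothing of binding in these samples.

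Myc (ENSMUSG00000022346, chr15:61985391-61990374 on the plus strand of mm10) had scaled read counts of 175, 414 and 111 in replicates 1 to 3 of wild-type LE, on average 233 ± 160 (SD, n = 3). In wild-type GE it was at 445, 766 and 511, a mean of 574 ± 169. In E-OEX LE the values were 838, 1341 and 438, a mean of 873 ± 453. Every E-OEX LE library lay above every wild-type LE library, although the lowest of the former, 438, was close to the highest of the latter, 414. E-OEX GE held 2254, 1600 and 2022, a mean of 1959 ± 332, while the U-OEx LE libraries held 978, 753 and 1098, a mean of 943 ± 175. From lowest to highest mean the order was wild-type LE, wild-type GE, E-OEX LE, U-OEx LE and E-OEX GE. The values of wild-type GE overlapped those of E-OEX LE, and the values of E-OEX LE overlapped those of U-OEx LE.

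Cdkn1a (ENSMUSG00000023067, chr17:29090976-29100727, plus strand) was the least abundant of the 3 in read count. Its scaled read counts were 14.5, 58.4 and 33.5 in wild-type LE, a mean of 35.5 ± 22.0 (SD, n = 3) that rests on 14 to 57 reads a library. They were 141, 242 and 164 in wild-type GE, a mean of 182 ± 52.8. The wild-type GE values all lay above those of wild-type LE. The E-OEX LE libraries held 290, 233 and 88.5, a mean of 204 ± 104, and those of E-OEX GE 871, 1136 and 670, a mean of 892 ± 234. For U-OEx LE the values were 304, 666 and 498, a mean of 489 ± 181. The order of means was the same as for Myc, and here wild-type GE and E-OEX LE were the only neighbours whose values overlapped.

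Plk2 (ENSMUSG00000021701, chr13:110395046-110400844, plus strand) was ordered differently. Its scaled read counts were 1840, 3375 and 2555 in wild-type LE, a mean of 2590 ± 768 (SD, n = 3), and 1123, 1251 and 1216 in wild-type GE, a mean of 1197 ± 66.1. Wild-type LE was thus the higher of the wild-type epithelia, without overlap. E-OEX LE held 1164, 529 and 934, a mean of 875 ± 322. U-OEx LE held 970, 914 and 1296, a mean of 1060 ± 206. The E-OEX GE libraries held 4308, 6309 and 5900, a mean of 5506 ± 1057. From lowest to highest mean the order was E-OEX LE, U-OEx LE, wild-type GE, wild-type LE and E-OEX GE. The first 3 of these overlapped from neighbour to neighbour, and E-OEX GE stood above all other libraries.

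These orders are on the deposited scale, and how its factors were set across the tables of the 3 genotypes is not given in the sources used here. After the reads of the 2819 genes shared by all tables were rescaled together with edgeR's TMM factors, U-OEx LE and E-OEX GE changed places for Myc (means of 1233 ± 195 and 1231 ± 273) and for Cdkn1a (646 ± 253 and 561 ± 158), and the pair overlapped for both genes. The Plk2 order became wild-type GE, E-OEX LE, U-OEx LE, E-OEX GE and wild-type LE, with means of 985 ± 49.1, 1068 ± 426, 1387 ± 233, 3419 ± 491 and 3628 ± 1530 (SD, n = 3 each). The position of E-OEX GE at the top therefore held on the deposited scale and not on the rescaled one, for each of the 3 genes. Within a single epithelium the order of the genotypes was the same on both scales.

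**Figure D1:**
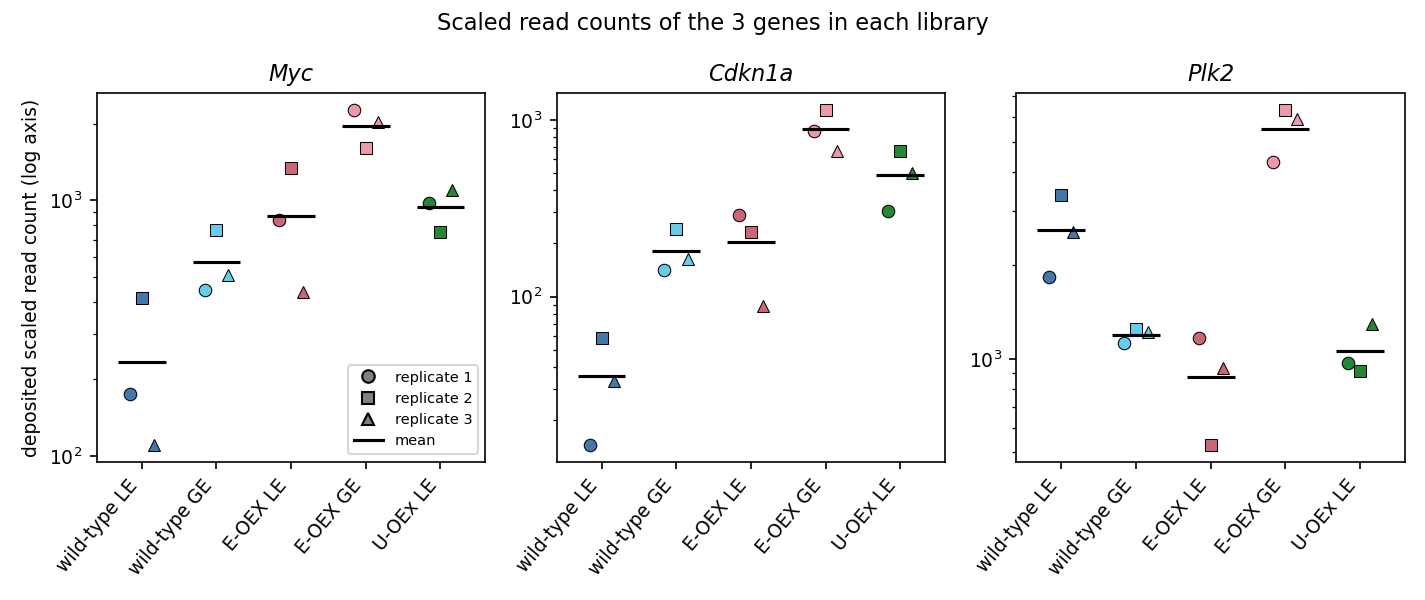
Deposited scaled read counts (log axis) of Myc, Cdkn1a and Plk2 in the 5 groups on the x axis, with 1 point per library, the marker shape giving the replicate number and a line at the group mean. Myc and Cdkn1a have their lowest means in wild-type LE (233 and 35.5) and their highest in E-OEX GE (1959 and 892), while Plk2 is higher in wild-type LE (2590) than in E-OEX LE (875) and U-OEx LE (1060).

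In the luminal epithelium of E-OEX mice, Myc and Cdkn1a were higher and Plk2 was lower than in wild type. The log2 fold changes, from limma on log2(value + 1) of the reads rescaled together, were 1.80 for Myc (SE 0.60, 95% interval 0.47 to 3.13), 2.36 for Cdkn1a (SE 0.66, 0.88 to 3.85) and -1.77 for Plk2 (SE 0.42, -2.71 to -0.82). None of the 3 genes overlapped between the groups on this scale, although for Myc wild-type LE replicate 2 (637) lay above E-OEX LE replicate 3 (432) on the scale set over all tables. In this comparison limma called 10.7% of 2600 genes at an adjusted p of 0.05, and 29.9% of them had no overlap between the groups. The size for Cdkn1a was 3.03 without E-OEX LE replicate 3, the library with the lowest Myc and Cdkn1a of its group, and 1.89 without wild-type LE replicate 1. For Myc the range over single libraries left out was 1.36 to 2.38, and for Plk2 -1.94 to -1.50.

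U-OEx LE set against the same wild-type LE libraries gave the same 3 directions. The log2 fold changes were 2.19 for Myc (SE 0.46, 95% interval 1.14 to 3.24), 3.86 for Cdkn1a (SE 0.50, 2.71 to 5.02) and -1.28 for Plk2 (SE 0.26, -1.88 to -0.69), again without overlap. Limma called 56.9% of 5949 genes here, and 63.8% of them had no overlap between the groups. Both comparisons share the 3 wild-type LE libraries, so the shared directions are not independent. Set directly against E-OEX LE, where 15% of 4275 genes were called, U-OEx LE had log2 differences of 0.10 for Myc (SE 0.45, -0.91 to 1.12) and 0.20 for Plk2 (SE 0.34, -0.56 to 0.96), and the values of the groups overlapped. Cdkn1a was 1.22 higher in U-OEx LE on the log2 scale (SE 0.50, 0.08 to 2.36), without overlap, as for 38.2% of all genes tested.

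In the glandular epithelium all 3 genes were higher in E-OEX than in wild type. The log2 fold changes were 1.33 for Myc (SE 0.27, 95% interval 0.73 to 1.93), 1.83 for Cdkn1a (SE 0.31, 1.13 to 2.52) and 1.72 for Plk2 (SE 0.22, 1.23 to 2.20), without overlap for any of them. Limma called 23.5% of 2851 genes in this comparison, and 40.5% of them had no overlap between the groups. Of the calls 41.3% were higher in E-OEX GE, against 71.6% on the deposited scale, on which all genes had a median log2 fold change of 0.50 in place of 0.05. The values of the 3 genes on the deposited scale were 1.79, 2.29 and 2.18, so their direction was the same on both scales. In LE the share of calls higher in E-OEX was 48.0%, against 58.6% on the deposited scale.

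**Figure D2:**
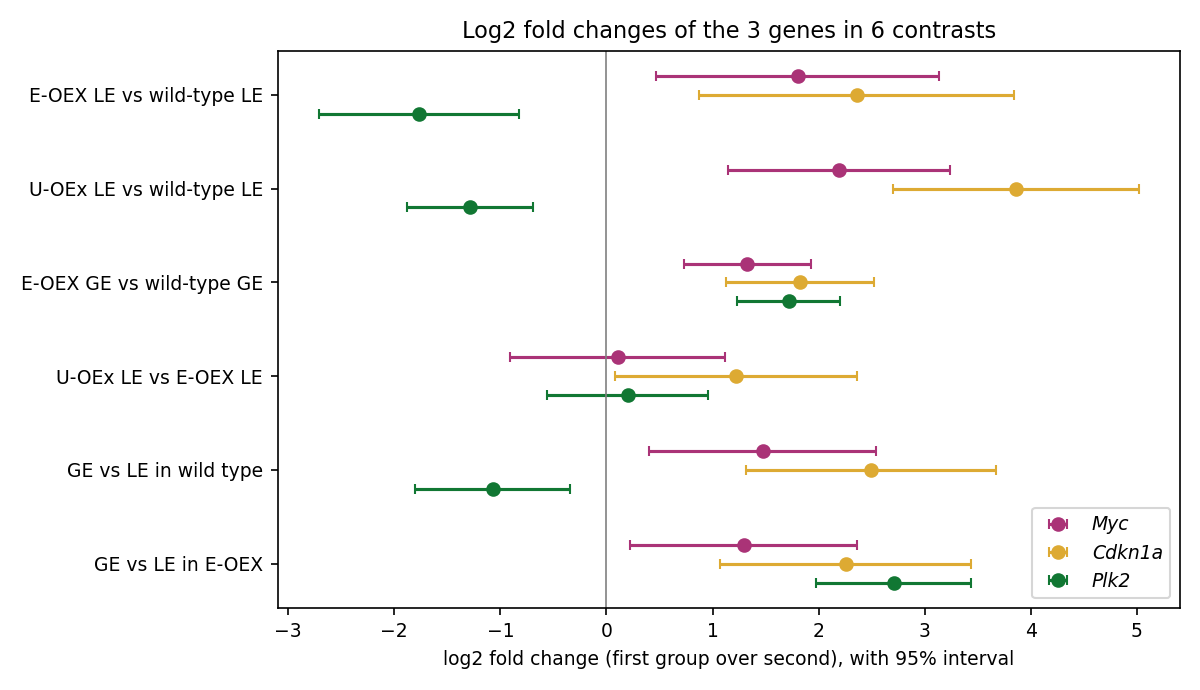
Log2 fold changes (x axis, points) with 95% intervals (bars) of Myc, Cdkn1a and Plk2 in 6 contrasts between groups (y axis), each contrast with 3 libraries a group. The points of Myc and Cdkn1a lie above 0 in all 6, but the Myc interval spans 0 for U-OEx LE against E-OEX LE (0.10, -0.91 to 1.12). Plk2 changes side between mutant and wild type, from -1.77 (E-OEX) and -1.28 (U-OEx) in LE to 1.72 in GE.

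Between the epithelia Plk2 turned over with the genotype. In wild type its log2 difference of GE over LE was -1.07 (SE 0.34, 95% interval -1.80 to -0.34), and in E-OEX it was 2.71 (SE 0.34, 1.98 to 3.44). The difference of these differences was 3.78 (SE 0.48, 2.74 to 4.81), in a fit where limma called 10.7% of 2933 genes and where the median over all genes was 0.33. It lay between 3.45 and 4.02 over the 19 alternatives run. Of those calls 54.3% were positive on the deposited scale and 43.9% after TMM rescaling.

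Myc and Cdkn1a had higher means in GE than in LE in both genotypes, by an amount that depended on the scale. For Myc the log2 difference of GE over LE was 1.48 (SE 0.50) in wild type and 1.29 (SE 0.50) in E-OEX, and for Cdkn1a it was 2.49 (SE 0.55) and 2.26 (SE 0.55). Between the genotypes the estimated shift of the GE over LE difference was -0.18 for Myc (SE 0.70, 95% interval -1.69 to 1.33). For Cdkn1a it was -0.24 (SE 0.77, -1.91 to 1.43). Both intervals are wide enough to hold a shift of either sign, so no shift was shown for these genes. A log2 difference of about 1 or more between the epithelia was needed for a gene to be listed in the wild-type and E-OEX tables, so the presence of a difference is fixed by the selection while its sign is not. With TMM rescaling the GE over LE difference of Myc was 0.75 in wild type and 0.31 in E-OEX, that of Cdkn1a was 1.28 in E-OEX, and that of Plk2 was -1.80 in wild type and 1.72 in E-OEX. With edgeR on the recovered reads the Myc difference was 0.48 in wild type and 0.10 in E-OEX. On the TMM scale set over all tables the Myc values of GE and LE overlapped in both genotypes, with 384 to 578 in GE and 154 to 637 in LE of wild type, and 989 to 1528 in GE and 432 to 1865 in LE of E-OEX. The Cdkn1a values did not overlap between GE and LE there in either genotype. In E-OEX, though, the highest LE value, 386, was close to the lowest GE value, 390.

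The GE libraries also differed from the LE libraries in markers of other cells. The 7 stromal markers summed to 33937 to 99770 in wild-type GE and 76196 to 90303 in E-OEX GE, against 369 to 7720 in wild-type LE, 395 to 2008 in E-OEX LE and 547 to 1737 in U-OEx LE. The 5 smooth muscle markers summed to 2734 to 4878 in wild-type GE and 14150 to 17496 in E-OEX GE, against 15.1 to 230 in all LE libraries, and limma called 4 of the 5 higher in the E-OEX glands, where it called 9.72% of all genes higher. The 5 endothelial markers summed to 3015 to 8148 in GE and 35.4 to 438 in LE. Actg2 was at 0 in all wild-type LE libraries and Emcn in all E-OEX LE libraries. The part of these cells in the levels of Myc, Cdkn1a and Plk2 was not tested, and in bulk samples fewer cells of a type and less RNA per cell cannot be told apart. The glandular markers, whose 7 genes include Foxa2 and Lif, summed to 122 to 326 in wild-type LE, 365 to 2060 in E-OEX LE and 1544 to 2334 in U-OEx LE, and their part was not tested either.

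Markers of other cells also moved in U-OEx LE against wild-type LE, the comparison in which Myc and Cdkn1a were higher. Limma called 3 of the 4 immune markers tested higher, where it called 29.1% of all genes higher, with a list median of 1.86 on the log2 scale. Cd74, the invariant chain of antigen presentation, had scaled read counts of 3159, 1776 and 1641 in U-OEx LE and of 218, 204 and 246 in wild-type LE. Lyz2 and Adgre1, both expressed by macrophages, were the other two called. Cd68, the immune marker listed in all tables, was at 293 to 462 in U-OEx LE, 219 to 278 in wild-type LE and 178 to 267 in E-OEX LE. Of the endothelial markers 2 of 6 were called higher and none lower, a share near the 29.1% of all genes called higher. The change was positive for 3 of the 6, and the list median was -0.21 on the log2 scale. Of the general epithelial markers 2 of 3 were called lower, where limma called 1655 of 5949 genes lower. Epcam was at a mean of 7020 in U-OEx LE and 11565 in wild-type LE, and Cdh1 at 7449 and 20391. Of the stromal markers 1 of 7 was called lower, and of the smooth muscle markers 2 of 4. Against E-OEX LE, limma called 1 of 3 immune, 2 of 5 endothelial, 1 of 6 smooth muscle and 0 of 9 stromal markers higher in U-OEx LE. None of these was called lower, and 298 of 4275 genes were called higher. Itgam had means of 893 in U-OEx LE and 94.6 in E-OEX LE, and Nkg7 of 4.01 and 8.23. The part of these shifts in the levels of Myc, Cdkn1a and Plk2 was not tested.

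Within groups the libraries with high Cdkn1a were those with high sums of stress and stromal genes in wild-type LE and E-OEX LE. In wild-type LE the order from high to low was replicate 2, 3 and 1 for Cdkn1a and for both sums. In E-OEX LE it was replicate 1, 2 and 3 for Cdkn1a and for both sums, and Myc was lowest in replicate 3. In U-OEx LE both sums were highest in replicate 3 and Cdkn1a in replicate 2. In wild-type GE the order was replicate 2, 3 and 1 for Cdkn1a but 2, 1 and 3 for both sums. In E-OEX GE it was 2, 1 and 3 for Cdkn1a but 2, 3 and 1 for both sums. With 3 libraries a group these orders are a description, and their part in the group differences was not tested.

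Immediate early genes are switched on within minutes of a stimulus, and Myc and Plk2 themselves respond in this way. The 9 immediate early and stress genes listed in all tables, among them Egr1, Jun and the heat shock genes Hspa1a and Hspa1b, summed to 527640 to 748200 in E-OEX GE and 193970 to 220860 in wild-type GE. In the LE libraries they summed to 9662 to 65673, with the groups overlapping. Between these groups limma called 7 of the 9 higher and 1 lower in E-OEX, with a median log2 fold change of 1.29 against 0.05 over all genes, of which 9.72% were called higher. Gadd45b rose by 1.89 (SE 0.31, limma adjusted p = 0.00233) and Egr1 by 1.69 (SE 0.28, limma adjusted p = 0.00239) on the log2 scale, and Ier3 fell by 1.17 (limma adjusted p = 0.0170). The Ier3 call was lost without wild-type GE replicate 1 or 3 or E-OEX GE replicate 3, on the deposited scale and in 1 fit over all 5 groups. Hspa1a and Hspa1b are near-identical copies whose reads the counting could have divided. They made up most of the GE sums, with means of 171680 and 294610 in E-OEX GE and of 58945 and 103200 in wild-type GE. The count of 7 higher was 4 without wild-type GE replicate 1 or replicate 2, and 2 in 1 fit over all 5 groups. Egr1, with Myc and Plk2 an early response gene, did not pass in that fit (limma adjusted p = 0.0947).

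**Figure D3:**
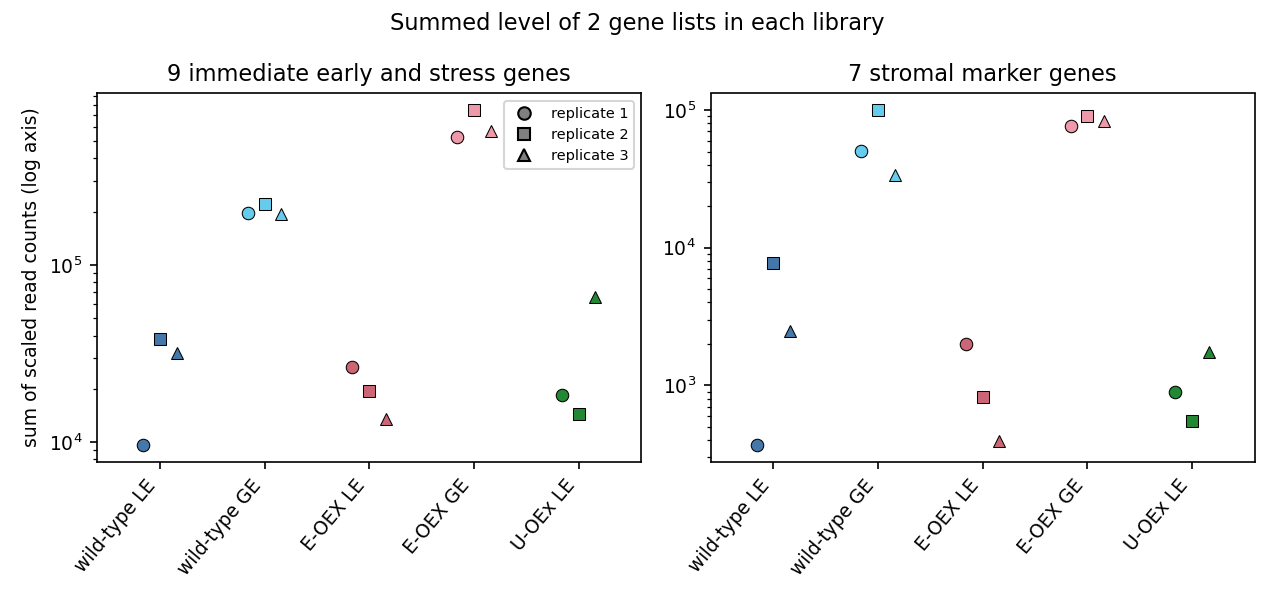
Sums of the deposited scaled read counts (log axis) of 9 immediate early and stress genes and of 7 stromal marker genes in each library, by group on the x axis, the marker shape giving the replicate number. Both sums are higher in the GE groups than in every LE group, and the stress gene sum of E-OEX GE (527640 to 748200) lies above that of wild-type GE (193970 to 220860). In the GE groups the stress gene sum is mostly Hspa1a and Hspa1b.

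In E-OEX LE limma called 1 of the 9 early response and stress genes, a share close to the 10.7% called over all genes. Nr4a1, an early response nuclear receptor, fell in E-OEX LE (log2 fold change -2.64, SE 0.60, limma adjusted p = 0.0238), and the median of the 9 genes was -0.37. That call was lost with no filter on low values and when any library other than wild-type LE replicate 1 was left out, with limma adjusted p-values of up to 0.121. In U-OEx LE limma called 3 of the 9, a smaller share than the 56.9% over all genes. It called 2 higher, Ier5 (log2 fold change 4.24, SE 0.55, limma adjusted p = 0.000350) and Gadd45b (2.44, SE 0.36, limma adjusted p = 0.000669), and called Nr4a1 lower (-1.53, limma adjusted p = 0.0366). The Nr4a1 call was lost on the deposited scale and when any library other than wild-type LE replicate 1 was left out. The interaction was called positive for 3 of the 9 genes, against 5.83% of all genes, with Nr4a1 at 3.87 (limma adjusted p = 0.0113), Egr1 at 3.58 (limma adjusted p = 0.0149) and Jun, named here after its value was seen, at 2.28 (limma adjusted p = 0.00547). These had the same sign as the 3.78 of Plk2. All 23 early response and stress genes listed in the E-OEX tables were higher in GE than in LE there, without overlap. Of all 4903 listed genes 63.9% were higher in GE, and 2966 were so without overlap.

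Cdkn1a and Plk2 are both targets of p53, and the other p53 targets were set beside them. Of the 27 genes of this list 4 could be tested between E-OEX and wild type. In GE limma called 3 of the 4 higher and 1 lower, where 23.5% of all genes were called. Pmaip1, which encodes the cell death protein Noxa, rose by 2.47 (SE 0.32, limma adjusted p = 0.000583) and Bbc3, which encodes Puma, by 1.995 (SE 0.31, limma adjusted p = 0.00164), while Gadd45a, a DNA damage response gene, fell by 1.30 on the log2 scale (limma adjusted p = 0.0118). The Gadd45a call was lost without wild-type GE replicate 1 or 3 and in 1 fit over all groups. In E-OEX LE the median of the 4 was -0.80, against log2 fold changes of 2.36 for Cdkn1a and -1.77 for Plk2, and Pmaip1 had a log2 fold change of -0.92 (limma adjusted p = 0.240). The interaction was called positive for Pmaip1 (3.68, SE 0.57, limma adjusted p = 0.00172) and Bbc3 (2.95, SE 0.87, limma adjusted p = 0.0455). The call for Bbc3 was lost in 12 of 19 alternatives, TMM rescaling among them, and in 10 of them with 1 library left out.

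In U-OEx LE 11 p53 targets were tested against wild type, and limma called 3 higher and 3 lower, a share near the 56.9% called over all genes. Gtse1, which is also a mitotic gene, rose by 5.10 (SE 0.36, limma adjusted p = 2.07e-05) and Ddit4 by 2.28 (SE 0.41, limma adjusted p = 0.00206). Ccng1 fell by 2.24 (SE 0.55, limma adjusted p = 0.00892) and Tnfrsf10b by 1.73 on the log2 scale (SE 0.27, limma adjusted p = 0.000992). The list median was 0.09, the same as over all genes, beside 3.86 for Cdkn1a.

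Among the other inhibitors of cyclin-dependent kinases, Cdkn1c, which encodes p57, moved against Cdkn1a in LE. Its scaled read counts were 954, 4027 and 2518 in wild-type LE, against 94.0, 90.8 and 119 in E-OEX LE and 40.4, 28.4 and 41.3 in U-OEx LE. The overexpressing libraries all lay below the wild-type ones. Cdkn1c fell both in E-OEX LE (log2 fold change -4.56, SE 0.53, limma adjusted p = 0.00157) and in U-OEx LE (-5.86, SE 0.47, limma adjusted p = 3.50e-05), and its interaction was 5.56 (SE 0.67, limma adjusted p = 0.000859). Cdkn2b, which encodes p15, rose by 2.91 in U-OEx LE (SE 0.37, limma adjusted p = 0.000346) and Cdkn2c, which encodes p18, by 2.36 (SE 0.29, limma adjusted p = 0.000281). In the full U-OEx tables, where levels between genes are compared per kilobase of exon, Cdkn1b had the highest level of the inhibitors at 287 ± 72.7, followed by Cdkn2b at 274 ± 107, which did not differ from it beyond the spread, and Cdkn2d at 158 ± 47.9. Cdkn1a was at 138 ± 50.9 and Cdkn1c at 18.0 ± 3.53 (SD, n = 3 each). Cdkn2a stood at 21.2, 199 and 23.8 scaled counts per kilobase, so its mean rests on replicate 2.

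Myc had a more abundant relative in the U-OEx luminal epithelium. Per kilobase of exon the scaled count was 1062, 1043 and 1239 for Mycn, 360, 277 and 404 for Myc, and 92.4, 105 and 92.3 for Mycl. Mycn lay above Myc and Myc above Mycl in every library, and Myc made up 22.3% of the summed level of the 3 genes. Mycn was not analysed in the wild-type and E-OEX tables. Of the wider Myc network, 4 of 12 genes could be tested in U-OEx LE against wild-type LE, and 2 of the 4 were called, against 56.9% of all genes. Limma called Mxd3, an antagonist partner of Max, higher (log2 fold change 4.52, SE 0.44, limma adjusted p = 8.86e-05) and Mlxip lower (-1.16, SE 0.19, limma adjusted p = 0.00125). Mxd3 had at most 5 reads a library in wild-type LE.

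Of 25 genes that Myc is known to activate, 5 could be tested in U-OEx LE, and limma called 4 of them higher, with a median log2 fold change of 1.97 against 0.09 over all genes, of which 29.1% were called higher. Tfrc, the transferrin receptor, rose by 3.14 (SE 0.23, limma adjusted p = 2.23e-05) and Srm, spermidine synthase, by 2.45 (SE 0.54, limma adjusted p = 0.00531). All 5 had been listed in the wild-type tables with a higher level in GE than in LE. In E-OEX 1 of the 25 could be tested, the chaperonin gene Hspd1, which rose in GE by 0.92 (SE 0.23, limma adjusted p = 0.0193) and differed by 0.26 on the log2 scale in LE (limma adjusted p = 0.762). The GE call for Hspd1 was lost without wild-type GE replicate 2 or 3 and in 1 fit over all groups. Of genes that Myc is known to repress, 3 could be tested in U-OEx LE. Cdkn2b was higher there, as given above, and Ndrg1 fell by 2.75 (SE 0.44, limma adjusted p = 0.00113).

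Genes of the dividing cell stood higher in U-OEx LE together with Cdkn1a. Limma called 11 of the 12 proliferation genes tested higher than in wild-type LE, with a median log2 fold change of 5.46, where 29.1% of all genes were called higher. The mitotic kinase genes Aurkb and Bub1 rose by 7.55 (SE 0.54, limma adjusted p = 2.07e-05) and 6.54 (SE 0.39, limma adjusted p = 1.21e-05). Both had at most 6 reads a library in wild-type LE, so the sizes depend on few reads. The count was 11 without each single library as well. Of the 12 genes, 11 had been listed in the wild-type tables with a lower level in LE than in GE. Among G1 genes, Ccne1, which encodes cyclin E1, rose by 4.95 (SE 0.56, limma adjusted p = 0.000183) and E2f1 by 4.43 (SE 0.38, limma adjusted p = 4.80e-05), and Rbl2, a pocket protein gene, fell by 1.13 (SE 0.28, limma adjusted p = 0.00907). Tyms was the only proliferation gene listed in E-OEX, with log2 fold changes of 0.37 in LE and 0.80 in GE (limma adjusted p = 0.675 and 0.276).

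Plk2 was not the most abundant polo-like kinase in U-OEx LE. Per kilobase of exon Plk1, the mitotic kinase, was at 326, 439 and 444, Plk2 at 216, 203 and 289 and Plk3 at 175, 85.7 and 204, with Plk4 at 6.35 ± 3.96 and Plk5 at 6.78 ± 2.62 (SD, n = 3). Plk1 lay above Plk2 and Plk2 above Plk3 in every library. Plk3, also an early response gene, had scaled read counts of 330, 155 and 296 in E-OEX LE and of 1018, 2294 and 1645 in E-OEX GE, so it was higher in GE there, as Plk2 was. Plk5 rose in U-OEx LE by 1.94 on the log2 scale (SE 0.55, limma adjusted p = 0.0174), a call lost without U-OEx LE replicate 2 or 3. It had at most 5 reads a library in wild-type LE. Rap1gap, which encodes an inhibitor of the small GTPase Rap1 and was kept in a list of possible Plk2 partners, rose in U-OEx LE by 2.03 (SE 0.26, limma adjusted p = 0.000363). It was the 1 gene called of 3 tested from that list, where 56.9% of all genes were called.

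The genes whose profile over the 15 libraries was most like each of the 3 were found by the root mean square difference of log2(value + 1) after each gene's own average was taken off, over 2535 genes. Nearest to Myc were Epb41l2 (0.48), Il15 (0.49), Rab34 (0.50), Rasgef1b (0.51) and Gpr27 (0.52), where the median over all genes was 1.89. Nearest to Cdkn1a were Ier5 (0.48), Edn2 (0.50), Adam11 (0.54), Epb41l2 (0.55) and Gli3 (0.57), against a median of 2.18. Epb41l2 was shared by the 2 sets. Its group means in LE were 112 in wild type, 531 in E-OEX and 862 in U-OEx. Those in GE were 532 in wild type and 1838 in E-OEX. Nearest to Plk2 were Nacad (0.43), Btg1 (0.47), Slc5a3 (0.49), Tpt1-ps6 (0.65) and Gnb4 (0.70), against a median of 1.85. Btg1, an antiproliferative gene, had group means in LE of 7653 in wild type, 2434 in E-OEX and 3398 in U-OEx. In GE it was at 3199 in wild type and 7771 in E-OEX. Tpt1-ps6 is a pseudogene that can share reads with its parent gene and is uncertain.

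Myc and Cdkn1a were nearer to each other in profile than Plk2 was to either. Myc stood 25th among 2535 genes by likeness to Cdkn1a, with a difference of 0.81, while Plk2 was 574th for Myc (1.42) and 768th for Cdkn1a (1.83), both below the medians over all genes of 1.89 and 2.18. All 5 nearest genes of each of the 3 were found again on the TMM scale. That was nearly fixed in advance, since a factor per library shifts all genes alike and almost cancels in this difference. By Pearson correlation in place of the difference, 2 of 5 were found again for Myc, 4 of 5 for Cdkn1a and 3 of 5 for Plk2. The points share their libraries, and Myc, Cdkn1a and Plk2 had been chosen with these profiles known, so no p-value is given.

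**Figure D4:**
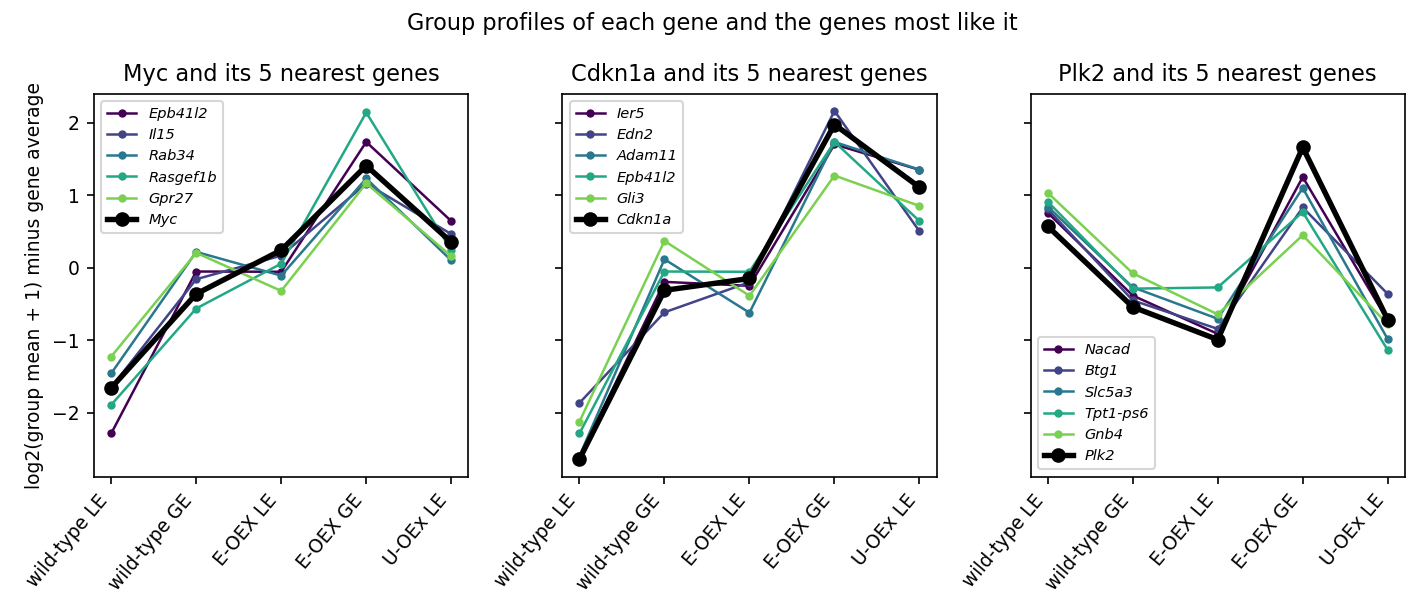
Log2(group mean + 1) minus the gene's average over the 5 groups (y axis) in each group (x axis) for Myc, Cdkn1a and Plk2 (black) and the 5 genes nearest to each (coloured). Myc and Cdkn1a and their nearest genes are lowest in wild-type LE, whereas Plk2 and its nearest genes, such as Btg1, are lower in E-OEX LE and U-OEx LE than in wild-type LE and high again in E-OEX GE.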

How the data were processed

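Total RNA libraries of 5 groups of 3 were sequenced. The authors' deposited values are a scaled read count, handled as a signal; no aligner, counter or scaling method is given in the sources used here, and the build is GRCm38 (mm10) per the submitters' processing notes. Values were whole multiples of a step in every library, and 100% lay within 0.01 of a whole read, so reads were recovered. The precision of each value is limited by its read count and by 3 libraries a group. Symbols and gene positions came from GENCODE M21 by Ensembl identifier, and all 3 genes matched.

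Differences were fitted with limma 3.58.1 (R 4.3.3, mean-variance trend) on log2(value + 1) for genes with a mean of at least 1, with Benjamini-Hochberg adjustment over all genes tested and a threshold of 0.05. The scale understates changes of low genes. Comparisons between genotypes used recovered reads of the shared genes rescaled with TMM (edgeR 4.0.16), and comparisons within a genotype and the interaction used deposited values. The script was tested on simulated data. Alternatives were edgeR, DESeq2 1.42.0, no filter, a pseudocount of 5, the other scaling, 1 fit over all groups, the replicate block and leaving out each library.

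The genes and all lists were chosen with earlier results of these data known. Named from a list are up to 2 called genes at each end per comparison, or every gene of a list with 6 or fewer tested. Genes outside a table's list were not analysed there.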

Additional observations from a re-analysis of the deposited data

Results flagged for a closer look

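The effect of genotype differed between GE and LE for 315 of 2933 genes by limma's interaction test, and 7 genes are given here. Plk2 had a GE minus LE difference of opposite sign in wild type and E-OEX, in every library, and the shift of 3.78 on the log2 scale was not tested because the gene had been chosen with its levels known. Of the called genes, Cdkn1c had a shift of 5.56, Nr4a1 of 3.87, Pmaip1 of 3.68, Egr1 of 3.58 and Bbc3 of 2.95, each with the genotype effect higher in GE than in LE. The Bbc3 call was lost in 12 of 19 alternatives. Jun was called too, with a shift of 2.28 (limma adjusted p = 0.00547).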

How the results depend on the processing

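The 15 log2 fold changes of the 3 genes outside the interaction and U-OEx LE against E-OEX LE had the same sign in 195 of 195 alternatives. The 6 values of those 2 comparisons had it in 87 of 96, the exceptions being small values of Myc, Cdkn1a and Plk2. Both totals include the replicate block and the fit with no filter, which leave each log2 fold change as it was and could not change a sign. On the deposited scale the E-OEX GE changes were 1.79 for Myc, 2.29 for Cdkn1a and 2.18 for Plk2. The GE over LE difference in wild type was 0.48 (edgeR), 0.32 (DESeq2) and 0.75 (TMM) for Myc, 1.53 and 1.37 (edgeR and DESeq2) for Cdkn1a, and -1.89, -2.14 and -1.80 (edgeR, DESeq2 and TMM) for Plk2. In E-OEX it was 0.10, 0.13 and 0.31 for Myc, 1.06, 1.12 and 1.28 for Cdkn1a, and 1.66, 1.66 and 1.72 for Plk2, in the same order. The causes were not tested.

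Counts of genes called moved more. In E-OEX LE against wild-type LE, 277 genes were called, 456 in DESeq2, 105 with no filter and 616 in 1 fit over all groups, and 56 to 322 without single libraries, with 117 and 56 without wild-type LE replicates 2 and 3 and 76 and 62 without E-OEX LE replicates 1 and 2. In E-OEX GE against wild-type GE, 670 became 285 in 1 fit, and 362 to 728 without single libraries (362 and 430 without wild-type GE replicates 1 and 3). In U-OEx LE against wild-type LE, 3384 became 1274 in 1 fit, which holds only the genes shared by all tables, and 2757 to 3439 without single libraries. In U-OEx LE against E-OEX LE, 642 became 286 with no filter and 60 to 904 without single libraries (340 and 334 without E-OEX LE replicates 2 and 3, and 60, 353 and 97 without U-OEx LE replicates 1, 2 and 3). The interaction, with 315, gave 501 in DESeq2 and 179 to 449 without single libraries (192 without wild-type LE replicate 3, 192, 209 and 179 without wild-type GE replicates 1 to 3, and 202 without E-OEX GE replicate 2 or 3).

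With the replicate block the 5 counts were 292, 718, 3182, 612 and 314. The log2 fold changes of Myc, Cdkn1a and Plk2 were those reported, which the balanced design fixes in advance. The deviations of same-numbered libraries did not all correlate above 0.1 in any comparison. For GE against LE in wild type the correlations were 0.087, 0.165 and -0.015 for replicates 1 to 3. With 3 libraries a group these values cannot tell whether same-numbered libraries came from the same animals. Chosen after seeing the data were the counts of early response and proliferation genes and the named list genes under every setting. The count of 11 proliferation genes higher in U-OEx LE was 0 in 1 fit over all groups, where only Tyms is listed. Depth limits Cdkn1a most, with 14 to 57 reads in wild-type LE.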
